A study of Mus musculus with 7 samples.

Results

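The microRNAs (miRNAs) described here come from the Dlk1-Dio3 region of mouse chromosome 12. Members were taken by name: a probe belonged to the cluster if it named 1 of 46 listed miRNAs, alone or with an arm. The panel measured 566 mouse miRNA features by 1 probe each, and 57 of these were members. They fell into a proximal group of 18 probes for 13 miRNAs and a distal group of 39 probes for 33 miRNAs. The rule used names and no measured value. All 46 miRNA genes lay between Dlk1 and Dio3 in the RefSeq gene table, with all 13 proximal genes on the Dlk1 side of every distal one.

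The study set 4 astrocytoma samples against 3 samples of normal neocortex from CD1 mice. The tumors arose in mice with the GFAP-HaV12-Ras transgene (written hGFAP-HaV12-Ra in the sample labels), in which the human promoter of GFAP, active in astrocytes and neural precursors, drives an activated Ha-Ras oncogene. Tumors 1 to 4 were taken at postnatal days 65, 104, 125 and 134. The neocortex samples were gray matter of layers II to IV from wild-type mice at postnatal day 60. Tumor 2 and neocortex 2 were female and the other 5 samples male. Every tumor mouse was older than the neocortex mice, so age and group cannot be told apart. A dissected tumor and a dissected cortical layer differ in their mix of cells. In such bulk RNA, fewer cells of a type and less miRNA per cell cannot be told apart.

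The Dlk1-Dio3 region is imprinted: its non-coding RNAs, including these miRNAs, are expressed from the maternally inherited chromosome, while Dlk1, Rtl1 and Dio3 are expressed from the paternal one. The miRNAs are cut from long transcripts that also carry Meg3, Rian and Mirg, and in the adult they are found mainly in brain, with neurons as a main source. The distal group corresponds to the miR-379/miR-410 cluster. The proximal miRNAs miR-431, miR-433, miR-127, miR-434 and miR-136 lie antisense to Rtl1 and can direct cleavage of its mRNA. In rodent neurons, miR-134 limits dendritic spine size through Limk1, and miR-134, miR-329 and miR-381 take part in the growth of dendrites with activity.

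RefSeq (GRCm38.p6) held a mature sequence for 47 of the 57 probes. Of these, 25 had a probe name without an arm, and the arm then follows older miRBase naming from general knowledge. The 47 sequences carried 47 different seeds, so no seed was shared. Sequences are given 5′ to 3′ with the seed, bases 2 to 8, in capitals. The first set holds the distal miRNAs that were called lower in tumor when only probes measured in every sample were compared, with the close relative miR-376b:
mmu-miR-376a: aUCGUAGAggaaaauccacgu
mmu-miR-376b: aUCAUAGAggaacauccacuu
mmu-miR-539: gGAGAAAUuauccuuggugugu
mmu-miR-409-5p: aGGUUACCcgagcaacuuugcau

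The second set holds the proximal miRNAs from the strand opposite Rtl1 that every sample measured well above background:
mmu-miR-433: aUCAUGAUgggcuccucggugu
mmu-miR-127: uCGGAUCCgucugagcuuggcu
mmu-miR-434-5p: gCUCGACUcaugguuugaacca
mmu-miR-434-3p: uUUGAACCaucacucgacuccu
mmu-miR-136: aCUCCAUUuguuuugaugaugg

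The third set holds the distal miRNAs whose tumor and neocortex levels lay closest together, and those measured in all 4 tumors but listed at 0 in all neocortex samples:
mmu-miR-154: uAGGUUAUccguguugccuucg
mmu-miR-369-3p: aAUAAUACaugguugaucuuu
mmu-miR-134: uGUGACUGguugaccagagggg
mmu-miR-380-5p: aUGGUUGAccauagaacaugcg
mmu-miR-494: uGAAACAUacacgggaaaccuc

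Some members are near copies, and probes for them may cross-react, which was not tested. Aligned from the 5′ end, miR-376b and miR-376a differed at 3 of 21 bases, and only A4G lay in the seed (the miR-376b base first, positions from 1 at the 5′ end). The other differences of that pair were C13A and U20G. A-to-I editing of the seed is known for the miR-376 family in brain, and edited copies were not measured separately here. Another close pair was miR-300 and miR-381, which differed at 3 of 22 bases, with G4A in the seed and the miR-300 base first.

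The values were deposited log2 levels from a NanoString nCounter mouse miRNA panel, which counts color-coded probes without amplification. A difference of 1 on this scale is a factor of 2, and levels of different probes are not compared as amounts, since each probe has its own efficiency. The samples differed in depth: 117614 to 208109 miRNA counts were recovered in the tumors, against 23561 to 60788 in neocortex. Depth and group therefore cannot be told apart. Values under a cutoff were listed at 0 in the deposited data, and the cutoff lay at 3.09 to 3.78 in the tumors, against 4.65 to 5.21 in neocortex. A level that was measured in a tumor could thus be listed at 0 in neocortex. The highest negative-control probe stood at 3.48 to 4.17 in the tumors and 5.42 to 5.80 in neocortex.

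Of the 57 cluster probes, 25 were above the cutoff in all 7 samples, 6 of them proximal and 19 distal. Among all miRNAs this held for 197 of 566. Tumors 1 to 4 had 44, 48, 39 and 45 cluster probes above the cutoff, and neocortex 1 to 3 had 27, 33 and 34. Every tumor showed more members than any neocortex sample, in the same direction as the lower cutoff there.

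In the group listed at 0 in all 3 neocortex samples were 14 probes: miR-770-5p, miR-493, miR-337-5p, miR-540-5p, miR-665 and miR-341 of the proximal group, and miR-380-3p, miR-380-5p, miR-758, miR-494, miR-666-3p, miR-666-5p, miR-654-3p and miR-134 of the distal group. Among all miRNAs 154 probes had this pattern, and 3 were at 0 in all tumors. Of the 14, miR-134, miR-380-5p and miR-494 were measured in all 4 tumors. The synaptic miR-134 stood at 4.85, 4.59, 4.73 and 3.84 in tumors 1 to 4 and was listed at 0 in neocortex 1 to 3. The values for miR-380-5p were 4.03, 4.0, 4.53 and 3.84 in the tumors, against 0 in each neocortex sample. The tumors had 6.03, 4.59, 3.78 and 3.54 for miR-494, against 0 in neocortex. Only the miR-494 value of tumor 1 was above 5.21, the highest cutoff of the 7 samples, so all other values of the 14 lay where at least 1 neocortex sample could not have measured them. No fold is given for these probes.

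The reverse pattern was seen for miR-673-5p, which was listed at 0 in all tumors and at 5.21 in neocortex 3, the cutoff of that sample. At 0 in all 7 samples were miR-673-3p, miR-299, miR-323-5p, miR-679, miR-654-5p and miR-412, against 107 such probes among all miRNAs. The remaining 11 members were measured in some samples of both groups. The map of detection shows these classes in the order of the genes.

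Before any test the levels are given by group of members. Among the miRNAs antisense to Rtl1, miR-433 stood at 7.43, 7.47, 7.36 and 6.74 in tumors 1 to 4, against 7.28, 8.23 and 8.44 in neocortex 1 to 3. For miR-127 the levels were 8.64, 8.79, 8.66 and 8.48 in the tumors, against 8.30, 9.44 and 9.50 in neocortex. Both had neocortex 1 below at least 3 of the tumors and neocortex 2 and 3 above all of them, so the groups overlapped through 1 sample. The level of miR-136 was 9.26, 9.49, 9.12 and 8.70 in tumors, against 9.06, 10.08 and 9.64 in neocortex. Tumors had 4.94, 5.16, 5.07 and 4.76 for miR-431, against 5.23, 5.36 and 5.38 in neocortex. The groups of miR-431 did not overlap, but all 3 neocortex values were at or below the highest negative control of their sample.

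The miR-434 precursor is the only member with probes for both arms above the cutoff in every sample. Its 3p arm stood at 8.64, 8.30, 8.57 and 7.98 in the tumors, against 8.40, 9.08 and 9.08 in neocortex. The 5p arm stood at 6.47, 6.58, 6.27 and 6.17 in the tumors, against 6.48, 7.05 and 7.46 in neocortex. On both arms neocortex 2 and 3 were above all tumors and neocortex 1 was within their range. The difference between the arms, 3p minus 5p, was 2.0 ± 0.28 in tumors (SD, n = 4) and 1.86 ± 0.21 in neocortex (SD, n = 3), so the ranges overlapped.

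In the distal group, the miR-376 miRNAs are encoded close together, miR-376b next to miR-376a. The level of miR-376a was 7.94, 7.52, 7.88 and 7.65 in tumors 1 to 4, against 8.07, 8.96 and 9.05 in neocortex 1 to 3. For miR-376b it was 8.58, 8.50, 8.02 and 7.67 in tumors, against 8.54, 9.37 and 9.11 in neocortex. Every tumor was below every neocortex sample for miR-376a, while for miR-376b neocortex 1 was below tumor 1. The third family member, miR-376c, stood at 5.80, 5.5, 5.66 and 5.74 in tumors, against 5.70, 6.77 and 6.30 in neocortex, with neocortex 1 again inside the tumor range.

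The distal miR-409-5p and miR-539, which share no seed, also had groups that did not overlap. The level of miR-409-5p was 6.57, 6.48, 6.6 and 6.14 in the tumors, against 6.62, 7.69 and 7.94 in neocortex. For miR-539 it was 6.45, 5.97, 6.26 and 5.70 in the tumors, against 6.57, 7.05 and 7.07 in neocortex. In both, neocortex 1 lay just above the highest tumor and neocortex 2 and 3 well above it.

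Other distal miRNAs varied as widely within the groups as between them. The dendritic miR-381 stood at 7.30, 7.68, 6.57 and 6.39 in tumors, against 6.88, 8.33 and 7.89 in neocortex. Levels of miR-329, which acts in the same setting, were 6.03, 5.92, 4.91 and 5.23 in tumors, against 5.36, 5.95 and 6.38 in neocortex. The level of miR-377 was 6.07, 6.24, 5.71 and 5.23 in tumors, against 5.93, 6.6 and 7.57 in neocortex. In each of these the groups overlapped, and tumors 3 and 4 were the 2 lowest tumors.

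The miR-543 and miR-495 miRNAs differ at 2 bases of the seed. The level of miR-543, reported to target N-cadherin in mouse neural precursors, was 6.75, 6.76, 6.55 and 6.03 in tumors, against 6.39, 7.34 and 7.21 in neocortex. For miR-495, reported to target Bdnf, it was 8.32, 8.26, 7.84 and 7.18 in tumors, against 7.50, 8.49 and 8.12 in neocortex. The groups overlapped for both, and tumor 4 was the lowest sample in both.

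At the far end of the cluster stood miR-410, with 7.80, 7.48, 7.30 and 6.90 in tumors, against 6.97, 8.35 and 7.57 in neocortex. Its neighbor miR-369-3p had 7.40, 7.30, 6.77 and 6.27 in tumors, against 6.51, 7.31 and 6.74 in neocortex. The level of miR-154 was 6.57, 6.38, 6.70 and 6.33 in tumors, against 6.75, 6.36 and 6.53 in neocortex. These 3 had groups that overlapped broadly, and miR-154 had the smallest spread, with all 7 samples between 6.33 and 6.75.

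Levels of miR-382 were 7.83, 7.63, 7.83 and 7.13 in tumors, against 7.03, 8.16 and 8.12 in neocortex. For miR-487b they were 7.30, 6.91, 6.42 and 6.04 in tumors, against 6.75, 7.62 and 7.02 in neocortex. Both overlapped between the groups. The 4 remaining probes measured in every sample also overlapped. The miR-411 probe had 4.99, 5.16, 4.95 and 4.13 in tumors, against 4.84, 5.46 and 5.53 in neocortex, where all 3 values were at or below the highest negative control. Levels of miR-323-3p were 6.25, 5.61, 5.59 and 4.89 in tumors, against 5.36, 6.73 and 6.21 in neocortex. For miR-667 the tumors spanned 5.04 to 5.90, against 5.79 to 6.77 in neocortex, and for miR-541 they spanned 4.99 to 5.69, against 4.93 to 5.95 in neocortex. In the first 3 of these 4 probes tumor 4 was the lowest sample of all, and in miR-541 neocortex 1 was.

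**Figure D1:**
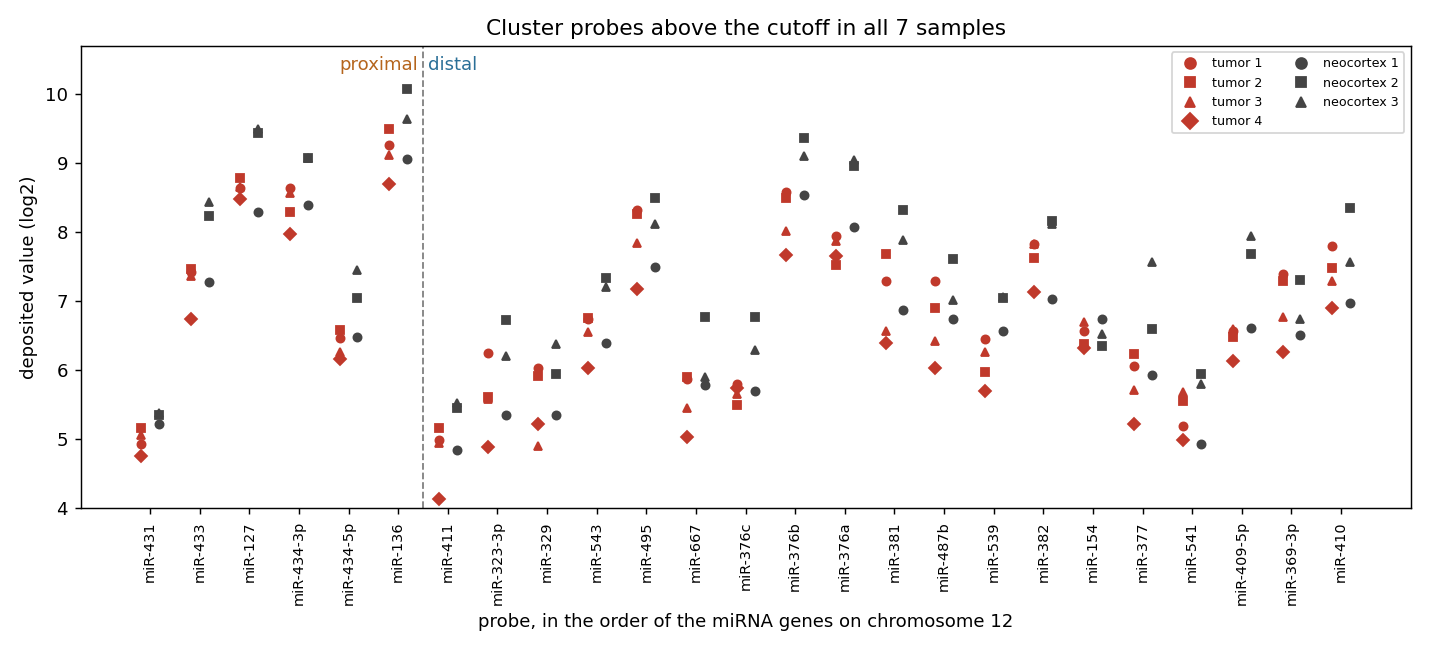
Deposited log2 level of the 25 cluster probes above the cutoff in all 7 samples, in locus order, with tumor samples and neocortex samples as separate points. The tumor points lie wholly below the neocortex points for miR-376a, miR-409-5p, miR-431 and miR-539, and overlap them for the other 21 probes.

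Tumor was compared with neocortex by limma over all miRNA probes whose mean level reached the median mean, 283 in number. Of the cluster, 35 of 57 probes passed this filter. None of the 35 passed an adjusted p of 0.05 in limma (0 higher and 0 lower in tumor, Benjamini-Hochberg over 283 probes), where 17.7% of all probes tested did, 8.13% higher and 9.54% lower. At an unadjusted p of 0.05 the same limma test had 0 cluster probes higher and 4 lower: miR-376a, miR-376b, miR-409-5p and miR-539. Over all 283 probes 14.5% were higher and 18% lower at that threshold. The median log2 change of the 35 was -0.41, against 0.03 over all probes tested. The proximal median was -0.39 over 10 probes and the distal median -0.41 over 25. The change was below 0 for 25 of the 35, where 49.1% of all probes tested were below 0. It was above 0 for 10, and 9 of those 10 were listed at 0 in at least 1 neocortex sample.

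The values of 0 therefore shape that fit, and the 25 members above the cutoff in every sample were also compared within the 197 miRNAs that met the same condition. This choice is not free of the cutoff either. The cutoff was higher in neocortex, so a low probe met the condition only where its neocortex values were high enough. That favors changes below 0, in the cluster and over the 197 alike. Their median log2 change was -0.47, against -0.29 over the 197. It was -0.47 in the proximal group of 6 and -0.47 in the distal group of 19. The change was below 0 for 24 of the 25, where 68% of the 197 were below 0. In this limma fit 3 cluster probes fell in tumor at an adjusted p under 0.05 and 0 rose. Among all 197 probes 20.8% fell and 9.14% rose, so the share of the cluster that fell is no larger than that of all miRNAs.

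The 3 that fell were distal. The log2 change of miR-376a was -0.95 (SE 0.27, 95% interval -1.54 to -0.35, limma adjusted p = 0.023). It was -0.97 for miR-409-5p (SE 0.31, interval -1.66 to -0.28, limma adjusted p = 0.041) and -0.80 for miR-539 (SE 0.24, interval -1.34 to -0.27, limma adjusted p = 0.030). In the fit over 283 probes the same changes had limma adjusted p-values of 0.068, 0.113 and 0.074. After subtraction of the highest negative control of each sample, none of the 3 was called. The changes were then -0.85 for miR-376a, -0.67 for miR-409-5p and -0.33 for miR-539, with limma adjusted p-values of 0.067, 0.327 and 0.404. Without tumor 2, tumor 4, neocortex 2 or neocortex 3, limma called 0 cluster probes lower, where 17.3%, 14.7%, 18.8% and 13.7% of the 197 were lower in these fits. Without tumor 1 the call of miR-409-5p was lost and miR-376b was called, so 3 members were still lower (20.3% of all lower). Without tumor 3 the calls of miR-409-5p and miR-539 were lost (16.8% of all lower).

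The groups were also set side by side sample by sample. Among the 35 tested members 4 were lower in every tumor than in every neocortex sample (miR-376a, miR-409-5p, miR-431 and miR-539) and 0 were higher, where 19.1% of all 283 probes were lower in this way and 13.8% higher. The 95% interval of the change included 0 for 17 of the 25 members that every sample measured. It included -0.29, the median of all miRNAs, for 24 of the 25.

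**Figure D2:**
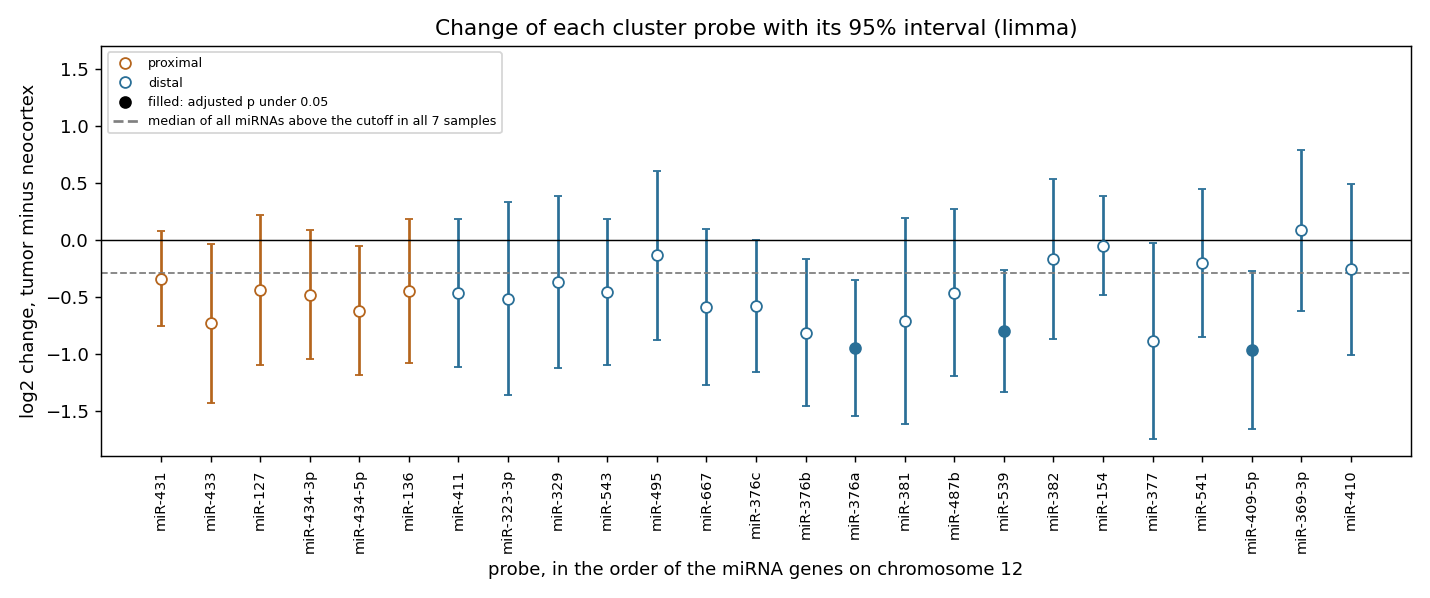
Log2 change (tumor minus neocortex) of the 25 probes above the cutoff in all 7 samples, with 95% intervals from limma, in the order of the genes on chromosome 12. Filled points are miR-376a, miR-539 and miR-409-5p, which passed an adjusted p of 0.05, and the dashed line is the median of all 197 miRNAs, -0.29.

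The gap between distal and proximal members differed between the groups by less than its spread within neocortex. Within each sample the distal median minus the proximal median does not depend on scaling. It was -1.47, -1.41, -1.42 and -1.32 in tumors 1 to 4, against -1.22, -1.35 and -1.69 in neocortex 1 to 3. The means were -1.40 ± 0.06 in tumors (SD, n = 4) and -1.42 ± 0.24 in neocortex (SD, n = 3). The proximal share of cluster counts was 42.2 ± 2.17% in tumors (SD, n = 4), against 42.1 ± 1.03% in neocortex (SD, n = 3). Across the 25 probes the change showed a Spearman correlation of 0.07 with position in the locus and of -0.04 with mean level. With GC content it was -0.08 over the 23 probes that have a sequence. These describe probes that share samples and carry no test.

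The cluster took 4.30% of all miRNA counts in tumor 1 (95% Wilson interval 4.19 to 4.42), 4.21% in tumor 2 (4.12 to 4.32), 3.64% in tumor 3 (3.54 to 3.74) and 2.82% in tumor 4 (2.75 to 2.89). In neocortex 1, 2 and 3 it took 3.33% (3.19 to 3.47), 6.51% (6.26 to 6.76) and 6.0% (5.71 to 6.31). These intervals cover counting error only. Neocortex 2 and 3 were above all tumors, and neocortex 1 was within the tumor range, so the groups overlapped.

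Neocortex 1 stood apart from the other neocortex samples in this cluster. It was the lowest of the 3 for 24 of the 25 members, all but miR-154, and lay a median of -0.81 from the mean of neocortex 2 and 3. Of the 172 other miRNAs above the cutoff in all samples, it was the lowest for 75, with a median difference of -0.04. Without neocortex 1, limma called 8 of the 35 tested members lower in tumor and 0 higher: miR-127, miR-370, miR-433, miR-434-5p, miR-376a, miR-376c, miR-409-5p and miR-539. In that comparison 14.5% of the 283 probes were lower. Over the probes above the cutoff in all samples, leaving it out gave 12 of 25 members lower, where 31% of the 197 were lower. Those 12 added miR-376b, miR-377, miR-381, miR-434-3p and miR-543, and did not include miR-370, which was not measured in neocortex 1. With the shared cutoff of 5.21, leaving out neocortex 1 gave 11 members lower, where 20.4% of all probes were lower.

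Within the tumors, tumor 4, from the oldest mouse, was the lowest of the 4 for 22 of the 25 members, with a median of -0.63 from the mean of the other 3. Among the 172 other miRNAs it was the lowest for 50, with a median difference of -0.04. As 1 mouse was sampled at each age, age and mouse cannot be told apart here. Tumor 4 also had the most miRNA counts of the tumors (208109), as neocortex 1 had of the neocortex samples (60788). The part of depth in their low cluster levels was not tested.

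Neuron-enriched miRNAs were set beside the cluster. Of that list of 19 probes, 12 were above the cutoff in all samples. Neocortex 1 was the lowest neocortex sample for 10 of the 12, a median of -0.61 from the others, and tumor 4 the lowest tumor for 7, a median of -0.33 from the others. In limma over all 283 probes 0 of 16 tested list members rose and 0 fell, with 3 lower at an unadjusted p of 0.05, where 17.7% of all probes passed the adjusted threshold and 18% were lower at the unadjusted one. Over the probes above the cutoff in all samples 2 of 12 fell, miR-124 and miR-384-3p, where 20.8% of all 197 fell. The list's median change was -0.52, against -0.29 over all 197. The defining neuronal miR-124 stood at 12, 11.74, 11.94 and 11.84 in tumors, against 12.21, 13.07 and 12.92 in neocortex. Summed over the list, levels were 13.04 to 13.44 in tumors and 13.42 to 14.13 in neocortex, and miR-212 and miR-488 were listed at 0 in all neocortex samples. The neuronal part in the cluster's change was not tested.

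Set against the neuron list within each sample, the cluster median was -2.51, -2.51, -2.16 and -2.50 in tumors 1 to 4, against -2.35, -2.25 and -1.79 in neocortex 1 to 3. The means were -2.42 ± 0.17 in tumors (SD, n = 4) and -2.13 ± 0.30 in neocortex (SD, n = 3), and the groups overlapped. Summed levels of oligodendrocyte miRNAs (miR-219 and miR-338) were 9.97 to 11.18 in tumors and 12.55 to 12.91 in neocortex. Those of astrocyte miRNAs (the miR-29 family) were 13.65 to 13.99 in tumors and 12.98 to 13.40 in neocortex. Within that family miR-29c went the other way, with a log2 change of -0.27. Sums over endothelial and mural miRNAs and over red blood cell miRNAs were also higher in every tumor than in every neocortex sample. Such a sum follows its brightest members. Of the 4 endothelial and mural probes 3 had a change above 0, and miR-145 had -0.22. The red blood cell miR-486 stood at 4.85 to 5.07 in tumors, below 5.36 and 5.14 in neocortex 1 and 2, and at 0 in neocortex 3. The sum of the microglia and leukocyte list overlapped, at 9.46 to 10.27 in tumors and 9.49 to 9.85 in neocortex. Of its 6 tested probes 4 had a change above 0, and miR-150 (-0.485) and miR-342-3p (-0.54) were below. Limma over 283 probes called miR-146a (adjusted p = 2.2e-05) and miR-142-3p (adjusted p = 0.044) higher, where 8.13% of all were higher. Neocortex values of 0 entered both: all of them for miR-146a, and neocortex 2 and 3 for miR-142-3p. The part of these lists in the cluster's change was not tested either.

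**Figure D3:**
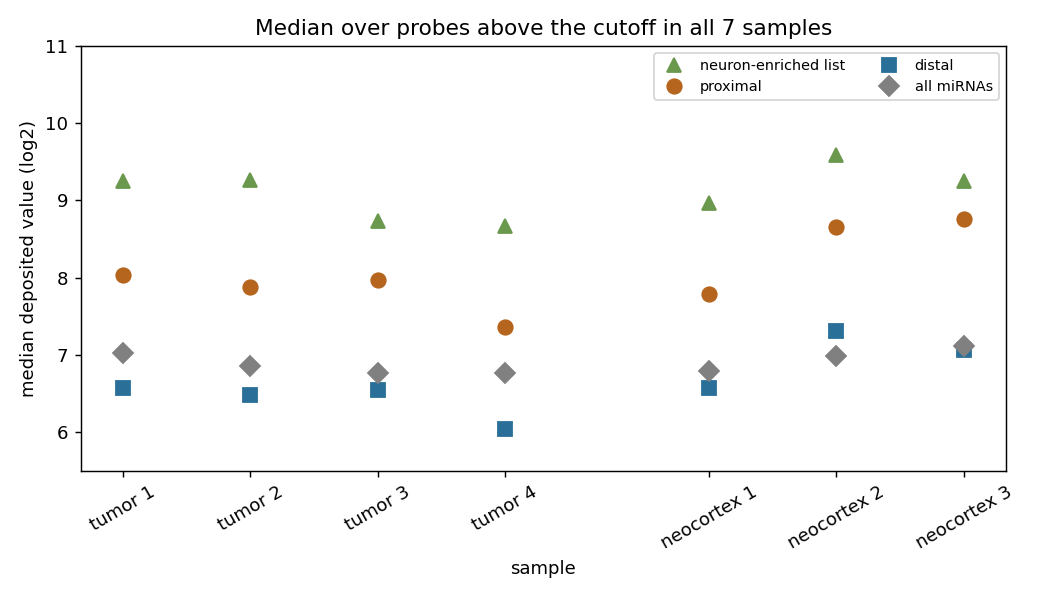
Median deposited log2 level, per sample, of the proximal probes, the distal probes, the neuron-enriched list and all miRNAs, over probes above the cutoff in all 7 samples. Proximal medians are 7.36 to 8.04 in tumors and 7.79 to 8.76 in neocortex, distal medians are 6.04 to 6.57 in tumors and 6.57 to 7.31 in neocortex, and neocortex 1 and tumor 4 are low in both.

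The size of the change depends on the scaling, which moves all miRNAs together. On positive-control probes all miRNAs had a median change of 1.74 and the cluster 1.27, with 29 of 35 members higher in tumor by limma and 80.6% of all probes higher. On housekeeping mRNA probes all miRNAs had -0.93 and the cluster -1.33, with 25 of 35 members lower and 47.7% of all probes lower. Over the probes above the cutoff in all samples the cluster stood 0.18 below all miRNAs in its median under the deposited, positive-control and housekeeping scaling alike. That gap could not differ, as each scaling moves the change of all these probes by the same amount. Each direction given above therefore holds on the deposited scale only. On that scale the median change of these probes was -0.29, so a member slightly below 0, such as miR-154 at -0.05, lay above that median.

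Calls of members under other settings were few. With 1 shared cutoff, values below 5.21 being set to it, miR-376a and miR-539 fell (2 of 32 members tested, 12.4% of all probes lower). A trend and robust limma fit over the 283 probes called the same 2 lower (10.6% of all). With no filter on low values miR-134, miR-380-5p and miR-494 were called higher (13.3% of all), each against 3 neocortex values of 0. After subtraction of the highest negative control miR-154 was called higher (log2 change 0.78, limma adjusted p = 0.045, 19.4% of all higher). The cluster median was then -0.11 over 23 members, against 0.14 over all miRNAs tested. It was -0.37 in the proximal group and -0.01 in the distal group, where 9 members were above 0 and 9 below. Single calls of higher members came from male samples alone and without neocortex 2, miR-300 in both (8.13% and 8.83% of all higher), where every remaining neocortex value was 0. Without neocortex 3, miR-337-3p and miR-668 were called higher (8.13% of all), both listed at 0 in neocortex 1 and 2. With all 25 members measured in every sample, scaling on positive controls called 25 higher (86.3% of all), on housekeeping mRNAs 25 lower (77.7% of all) and on the median 4 lower (20.3% of all).

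Arms of 2 further precursors could be set side by side in part. For miR-369 the 3p arm minus the 5p arm was 2.69 ± 0.23 in tumors (SD, n = 4), against 1.75 and 1.21 in neocortex 2 and 3. For miR-409 it was -1.50, -0.87, -2.30 and -1.30 in tumors, against -2.55 and -2.73 in neocortex. In neocortex the 5p arm of miR-369 and the 3p arm of miR-409 were at or below the highest negative control or listed at 0, so those neocortex differences carry background. Neither was tested.

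The panel also held 6 miRNAs of the same region that are not among the members. The one measured in all samples, miR-544, whose gene lies among the distal members, had 5.59, 5.07, 5.36 and 4.92 in tumors, against 6.12, 6.26 and 6.80 in neocortex. Every tumor was below every neocortex sample. Its log2 change was -1.16 (SE 0.26, limma adjusted p = 0.030 over 283 probes). It was called in 3 of 7 limma fits that left out 1 sample (adjusted p 0.022 to 0.085), and in 7 of 7 over the probes above the cutoff in all samples (0.0072 to 0.033). Subtracting the highest negative control left -0.20 with a limma adjusted p of 0.465. The others were low: miR-1188 stood at 3.26 to 4.03 in tumors and at 0 in neocortex, miR-1197 was measured in 3 tumors and miR-1906 in 1, neither in neocortex, and miR-1193 and miR-453 were at 0 in all samples.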

How the data were processed

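RNA of 4 tumor and 3 neocortex samples was measured on the NanoString nCounter mouse miRNA panel, version 1.3, per the labels. The deposited values are log2 levels as the authors made them. How they were normalized, corrected for background and computed is not given in the sources used here. Once unlogged, the low values of each sample (up to 60 counts) were 100% whole multiples of 1 unit, to within 0.02 counts, which gave the counts and totals printed. Groups and replicate numbers come from the sample titles. The tumors differ in age, but the labels do not state that all neocortex samples are separate mice, and they give no batch, so p-values measure the spread between these samples.

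Tumor was compared with neocortex by 2-sided tests without covariates, using lmFit and eBayes of limma 3.58.1 (R 4.3.3), on the log2 values as deposited, with Benjamini-Hochberg adjustment over the 283 miRNA probes whose mean was at least the median mean. Only mouse miRNA probes entered the fit. The fit was tested on simulated data, drawn independently for each probe from the levels of probes above the cutoff in all samples. Those data held no values at 0, so that test does not cover them. Because the unit is log2, no count model was run. The members, lists and rules were chosen with earlier results of these data known. Named members are those above the cutoff in all samples, those called, and those at 0 in all samples of a group; members at 0 throughout and miR-544 were named after their values were seen. Sequences were matched by miRNA name to RefSeq (GRCm38.p6). The deposited files name no genome build, so positions from the RefSeq build are not printed. Alternatives covered scaling, filter, values at 0, background, pseudocount, fit, sex, replicate block and each sample left out.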

Additional observations from a re-analysis of the deposited data

Results flagged for a closer look

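In 3 of the 31 sets of 4 tumor values examined, 1 sample stood apart by Dixon's test at the 95% level, which divides the gap to the nearest sample by the whole range. Chance flags about 1 set in 20. For miR-433 the ratio was 0.849, with tumor 4 at 6.74, below the 7.36 to 7.47 of the other tumors. For the distal median it was 0.830, with tumor 4 at 6.04, below the 6.48 to 6.57 of the others. For the cluster median minus the neuron-list median it was 0.986, with tumor 3 at -2.16, above the -2.51 to -2.50 of the others.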

How the results depend on the processing

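Depth limits the members listed at 0 in neocortex, where the cutoff was highest. Among the tested members, 2 were called lower by limma with the shared cutoff (miR-376a and miR-539), 2 with trend and robust fitting, and 3 over probes above the cutoff in all samples. No filter gave 3 higher and a distal minus proximal difference of -1.12, male samples alone 1 higher, and negative-control subtraction 1 higher and a difference of 0.36. Positive-control scaling gave 29 higher and a cluster median of 1.27, and housekeeping scaling 25 lower and -1.33. Alternatives added after seeing the data, over probes above the cutoff in all samples, gave 25 higher and 1.24 (positive controls), 25 lower and -1.43 (housekeeping) and 4 lower (median scaling). Leaving out each sample in turn gave 0 to 2 members higher and 0 to 8 lower, 0 to 11 lower with the shared cutoff and 0 to 12 lower over probes above the cutoff in all samples. The highest count of lower members came without neocortex 1 each time, and the 2 higher without neocortex 3. The cluster median then ran between -0.69 and -0.21, -0.68 and -0.24, and -0.75 and -0.30 in these 3 series of fits, and the distal minus proximal difference between -0.15 and 0.09, -0.06 and 0.10, and -0.09 and 0.08.

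Of 522 pairs of a named member and a setting, 432 kept their direction and side of the threshold, 39 kept direction and gained a call, and 51 changed direction. Some of the 51 were also called. No member was called in the main fit, so no call could be lost. Housekeeping scaling gave 24 of the 39, and positive-control scaling 24 of the 51. Positive-control scaling shifts all miRNAs of a sample alike, and under it every member but miR-369-3p turned: 1.37 for miR-431, 0.979 for miR-433, 1.28 for miR-127, 1.23 for miR-434-3p, 1.09 for miR-434-5p, 1.26 for miR-136, 1.24 for miR-411, 1.2 for miR-323-3p, 1.34 for miR-329, 1.25 for miR-543, 1.58 for miR-495, 1.12 for miR-667, 1.13 for miR-376c, 0.898 for miR-376b, 0.767 for miR-376a, 0.998 for miR-381, 1.25 for miR-487b, 0.911 for miR-539, 1.55 for miR-382, 1.66 for miR-154, 0.825 for miR-377, 1.51 for miR-541, 0.743 for miR-409-5p and 1.45 for miR-410. Housekeeping scaling, also a common shift, gave -0.88 for miR-369-3p. Median scaling gave 0.0542 for miR-154. Quantile normalization gave 0.0854 for miR-495, 0.0393 for miR-382, 0.0902 for miR-154 and 0.0112 for miR-541. Negative-control subtraction gave 0.0128 for miR-323-3p, 0.216 for miR-329, 0.0666 for miR-543, 0.0884 for miR-495, 0.13 for miR-382, 0.779 for miR-154 and 0.0656 for miR-410. Male samples gave 0.0217 for miR-382 and 0.0633 for miR-410. With 1 sample left out, miR-369-3p ranged from -0.09 to 0.31, miR-495 from -0.41 to 0.10, miR-154 from -0.15 to 0.05, miR-382 from -0.54 to 0.03 and miR-410 from -0.59 to 0.10. Beyond those common shifts, the cause was not tested.

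Same-numbered tumor and neocortex samples had correlations of -0.18, 0.25 and 0.13 over 197 probes, each taken as its difference from the group mean. Differently numbered samples had -0.39 to 0.43. With so few samples these values cannot show whether the numbers pair the samples. With a replicate block limma called 0 cluster probes higher or lower, 5 higher and 0 lower among all miRNAs, and the cluster median was -0.27, with 0.10 for miR-495 and 0.0033 for miR-154. Only tumor 4 carries replicate number 4, so the block takes it out of the comparison. The cluster median without tumor 4 and without a block was also -0.27.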
